A study of Mus musculus with 12 samples.

Results

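The creatine kinase and adenylate kinase energy shuttle was followed through 7 genes in mouse left ventricle: Ckm, Ckb, Ckmt2, Slc6a8, Ak1, Ak3 and Ak4. They were found in the expression table by their NCBI Gene identifiers and were 7 of its 18079 genes. All 7 passed the filter that left 11664 genes for testing, which kept a gene when 3 or more mice had an FPKM (reads per gene, corrected for transcript length and for library size) of 1 or more.

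RNA was taken from the left ventricular muscle of 12 male C57BL/6 mice, with 3 mice in each of 4 groups: DMSO+Sham, DMSO+AB, Hispidulin+Sham and Hispidulin+AB. AB is banding of the aorta, which loads the left ventricle with pressure, and Sham is the same operation without the band, done at 8 weeks of age with the tissue taken at 12 weeks. Hispidulin, a plant flavone, was injected into the peritoneum at 20 mg/kg/day from 1 day ahead of surgery until 4 weeks after it, and the other mice received its solvent, DMSO. The question of the study was how hispidulin acts on the hypertrophy of banded hearts.

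Heart muscle spends ATP at the myofilaments and makes it in mitochondria, and creatine carries the phosphate between the places. Mitochondrial creatine kinase loads the phosphate onto creatine, cytosolic creatine kinase passes it back to ADP beside the filaments and pumps, and a plasma membrane transporter brings the creatine in from the blood. Adenylate kinases turn a pair of ADP molecules into ATP and AMP, which both recovers energy and produces the AMP that reports energy stress. In the failing heart this system is known for loss of creatine and of creatine kinase activity, and brain-type creatine kinase is known as the form that the fetal heart uses.

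Ckm, the muscle-type cytosolic enzyme, had a mean of 1985 FPKM over the 12 mice. Ckmt2, the mitochondrial enzyme of striated muscle, had a mean of 1757 FPKM. Ckb, the brain-type cytosolic enzyme, had a mean of 34.4 FPKM. Since these creatine kinase genes differed widely in level, the 250 bases ahead of the transcription start of each are printed here, from RefSeq on GRCm38.p6, 5′ to 3′ on the strand of the gene. E-boxes (CANNTG, the same on both strands), the motif that myogenic factors of the basic helix-loop-helix family bind, are in capitals.
Ckm, chr7:19410844-19411093, plus strand: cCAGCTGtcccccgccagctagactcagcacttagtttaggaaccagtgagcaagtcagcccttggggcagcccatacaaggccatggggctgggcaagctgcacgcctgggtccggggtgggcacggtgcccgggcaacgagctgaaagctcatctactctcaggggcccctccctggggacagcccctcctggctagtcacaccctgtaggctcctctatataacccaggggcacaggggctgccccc
Ckmt2, chr13:91876886-91877135, minus strand: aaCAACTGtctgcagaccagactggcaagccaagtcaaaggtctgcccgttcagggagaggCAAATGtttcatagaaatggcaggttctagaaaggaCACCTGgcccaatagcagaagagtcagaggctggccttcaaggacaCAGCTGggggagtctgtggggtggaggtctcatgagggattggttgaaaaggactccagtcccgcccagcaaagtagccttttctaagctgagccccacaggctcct
Ckb, chr12:111672339-111672588, minus strand: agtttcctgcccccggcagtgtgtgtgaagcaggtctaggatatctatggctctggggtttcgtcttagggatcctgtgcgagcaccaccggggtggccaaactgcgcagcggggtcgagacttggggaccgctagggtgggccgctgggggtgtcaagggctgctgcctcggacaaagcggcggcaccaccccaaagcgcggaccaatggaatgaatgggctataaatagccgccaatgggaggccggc

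The Ckm window held 1 E-box and the Ckmt2 window 4, against 0 in the Ckb window. At least 1 E-box was present in 66.2% of the 32851 RefSeq windows of this length. CCAAT, searched on both strands with no overlap with the E-boxes required or barred, occurred 2 times in the Ckmt2 window, 2 times in the Ckb window and 0 times in the Ckm window, against 33.8% of all windows with at least 1. TATAAA, searched in the same way, occurred 1 time in the Ckb window and 0 times in the Ckm and Ckmt2 windows, against 12.4% of all windows. The Ckm window held the letters TATATAA, which this search did not count. The share of G and C was 64.8% for Ckm, 54% for Ckmt2 and 62.8% for Ckb, with a median of 52.4% over all windows. These are matches of letters in a short window and say nothing of which factors bind there.

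Each mouse gave 1 library of single-end reads of 50 bases from polyadenylated RNA. The values used here are FPKM, without counts, so the depth behind them is unknown and no counting error can be given. The 12 libraries summed to between 535235 and 567027 FPKM. Replicates are separate animals. Of 5 genes that mark hypertrophy, 4 rose in DMSO+AB against DMSO+Sham: Nppa, Nppb, Acta1 and Ankrd1, the last 3 also without any 1 mouse and with the series of the animal numbers in the model, in which Nppa had an adjusted p of 0.0607. The libraries were of ventricle, with summed ventricular markers between 50852 and 71124 FPKM, while 7 of 9 skeletal muscle markers were under 1 FPKM in every mouse. The atrial gene Myl7 stood above 40 FPKM in 3 mice, Hispidulin+Sham replicate 3 with 333 FPKM, DMSO+AB replicate 2 with 67.5 FPKM and Hispidulin+AB replicate 3 with 42.3 FPKM, against at most 15.0 FPKM in the other mice. DMSO+Sham replicate 3 stood apart in another way: it had the lowest summed ventricular markers of the 12 mice, the highest summed macrophage markers (293 FPKM, against at most 239 FPKM elsewhere), and the lowest level of Ckb, of Ak1 and of Ak4. In bulk tissue, fewer cells of a type and less RNA per cell cannot be told apart.

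FPKM is scaled by transcript length, so the levels of different genes can be set side by side. By mean level Ckm came first, at rank 26 of all 18079 genes, and Ckmt2 second, at rank 33. Ak1, the cytosolic adenylate kinase of muscle, followed at rank 322 with a mean of 260.0 FPKM. Slc6a8, the creatine transporter, had a mean of 77.9 FPKM, and Ak3, the GTP-dependent enzyme of the mitochondrial matrix, had a mean of 60.8 FPKM. Ckb was sixth, at rank 2110. Ak4, a matrix adenylate kinase known for its induction by low oxygen, was last, at rank 5462 with a mean of 9.68 FPKM. This order held in all 12 mice at every step except the first, since Ckm was above Ckmt2 in 11 of 12 mice and their ratio ran from 0.935 to 1.43. The level of Ckm was between 41.0 and 83.2 times that of Ckb. Together the 7 genes made up between 0.659% and 0.843% of the summed FPKM of a mouse.

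**Figure D1:**
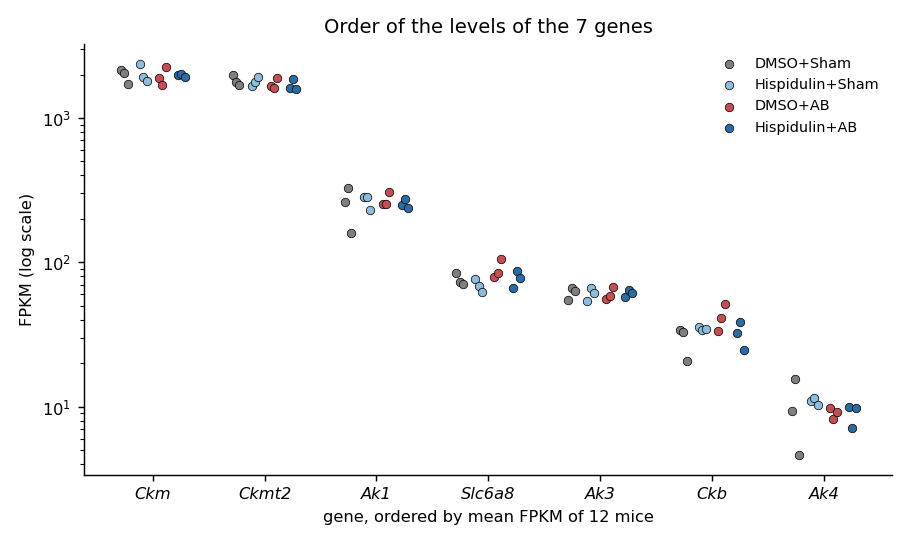
FPKM on a log axis of the 7 genes in each of the 12 mice, with genes ordered by their mean and points coloured by group. Ckm lies between 1685 and 2385 FPKM and overlaps Ckmt2, and Ak4 lies lowest, between 4.60 and 15.6 FPKM.

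The genes also differed in how far mice of the same group were apart. Ckmt2 and Ak3 were the steadiest of the 7, with coefficients of variation over the 12 mice of 7.47% and 7.54%, and only 14.1% and 20.7% of the tested genes had a smaller spread within groups. Ckm and Slc6a8 lay near the middle, at 46.1% and 46.2% of the tested genes. Ckb, Ak1 and Ak4 were among the more variable, with 83.3%, 83.7% and 94.0% of the tested genes having a smaller spread within groups. The range of Ak4, from 4.60 to 15.6 FPKM, was set by the DMSO+Sham group alone.

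None of the 7 genes passed the test in any comparison between groups. Between DMSO+AB and DMSO+Sham, limma at a Benjamini-Hochberg adjusted p under 0.05 called 0 of the 7, against 5.21% of all tested genes, and at an unadjusted p under 0.05 it called 1 of the 7, Ckb, against 20.4% of all tested genes. The median log2 fold change of the 7 was 0.03, and that of all tested genes was -0.03. Nor did the 3 mice of DMSO+AB lie wholly apart from the 3 of DMSO+Sham for any of the 7, while 17.9% of all tested genes had such groups.

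**Figure D2:**
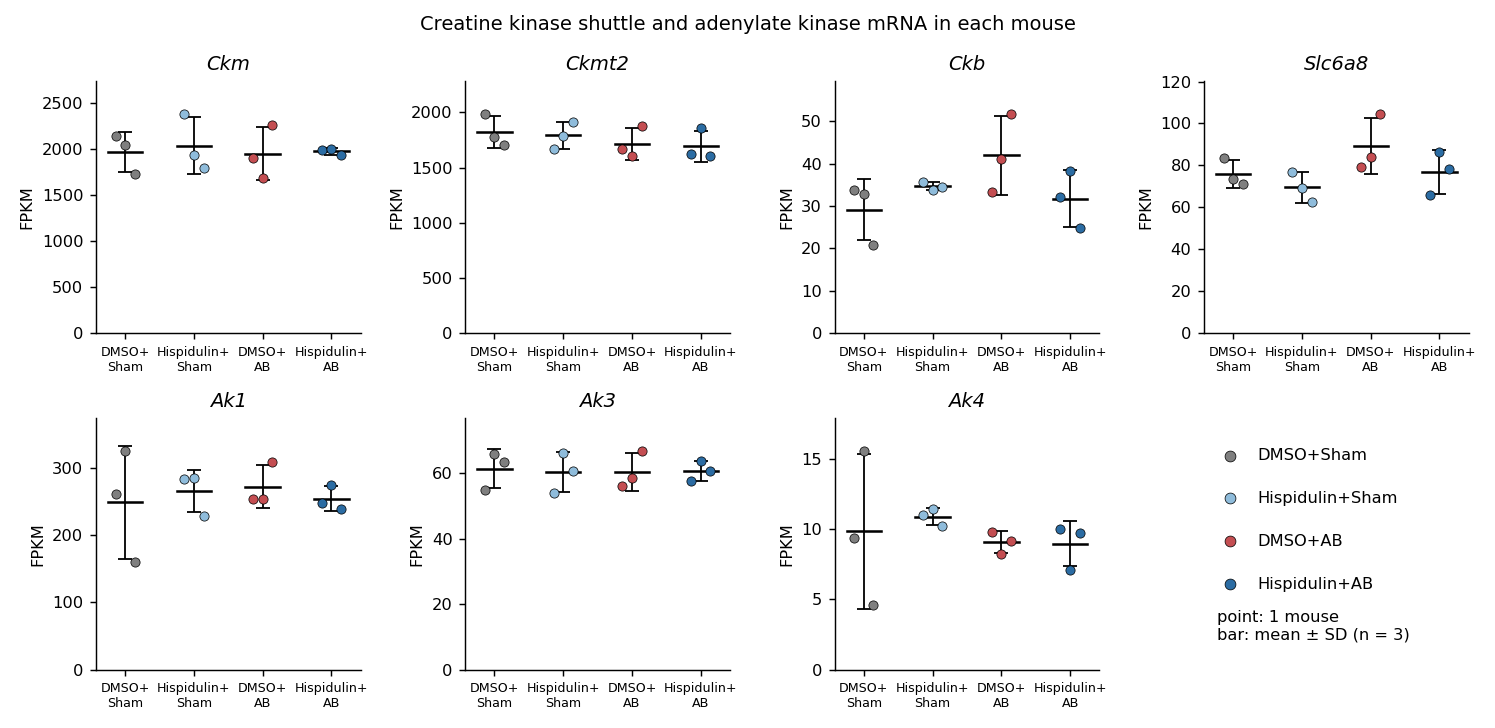
FPKM (axis from 0) of each of the 7 genes in each mouse, with a point for each mouse and a bar for the mean ± SD of the 3 mice of a group. Ckb and Slc6a8 have their highest mean in DMSO+AB (42.0 and 89.3 FPKM), as does Ak1 (272 FPKM), and no gene has groups wholly apart between DMSO+AB and DMSO+Sham.

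Ckm was 2144, 2049 and 1728 FPKM in DMSO+Sham. It was 1908, 1685 and 2262 FPKM in DMSO+AB. The groups overlapped, and the lowest and the highest of these 6 values were both in banded mice. In the hispidulin groups Ckm was 2385, 1933 and 1794 FPKM after Sham. It was 1988, 2004 and 1938 FPKM after AB, a narrow cluster inside the range of the sham mice. On the log2(FPKM + 1) scale the difference of DMSO+AB from DMSO+Sham was -0.02 with a 95% confidence interval from -0.31 to 0.27 (adjusted p = 0.948). Under hispidulin the difference with AB was -0.03 (from -0.32 to 0.26).

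Ckmt2, which sits between the mitochondrial membranes and hands phosphate to creatine, was 1987, 1777 and 1703 FPKM in DMSO+Sham and 1668, 1605 and 1882 FPKM in DMSO+AB. The groups overlapped because DMSO+AB replicate 3 lay above both lower sham mice. In the hispidulin groups it was 1673, 1786 and 1918 FPKM after Sham and 1620, 1857 and 1602 FPKM after AB, again with overlap. The log2 difference with AB was -0.09 (from -0.30 to 0.13, adjusted p = 0.674) under DMSO and -0.08 (from -0.30 to 0.14, adjusted p = 0.930) under hispidulin. Those comparisons share no mice. With 1 mouse left out the first ran from -0.15 without DMSO+AB replicate 3 to -0.021 without DMSO+Sham replicate 1, and the second from -0.15 without Hispidulin+AB replicate 2 to -0.033 without Hispidulin+Sham replicate 3. Over both treatments the difference was -0.08 (from -0.24 to 0.07, adjusted p = 0.525).

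On the log2 scale with all mice, Ckb had the widest gap between DMSO+AB and DMSO+Sham of the 7 genes. It was 33.8, 32.9 and 20.8 FPKM in DMSO+Sham, a mean of 29.2 ± 7.28 FPKM (SD, n = 3). It was 33.2, 41.1 and 51.8 FPKM in DMSO+AB, a mean of 42.0 ± 9.32 FPKM (SD, n = 3). The overlap was narrow: DMSO+AB replicate 1 lay just below DMSO+Sham replicate 1, and the other banded mice lay above every sham mouse. The log2 difference was 0.52 (95% confidence interval from 0.07 to 0.98), a ratio of 1.44 (from 1.05 to 1.97), with an unadjusted p of 0.0274 and an adjusted p of 0.178, so it did not pass. Without DMSO+Sham replicate 3, the mouse with the lowest Ckb, the difference was 0.30 (adjusted p = 0.420).

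Under hispidulin the mean of Ckb after AB lay below that after Sham, and the groups overlapped. Ckb was 35.8, 33.8 and 34.6 FPKM in Hispidulin+Sham, 3 mice that lay close together (mean 34.7 ± 0.984 FPKM, SD). It was 32.1, 38.3 and 24.8 FPKM in Hispidulin+AB (mean 31.7 ± 6.77 FPKM, SD), on both sides of the sham mice. The log2 difference with AB was -0.15 there (from -0.60 to 0.31, adjusted p = 0.943). The interaction, the difference between the change with AB under hispidulin and that under DMSO, was -0.67 (from -1.31 to -0.03) with an unadjusted p of 0.0422 and an adjusted p of 0.9995, so the data did not show that the changes differ. Ckb was the only gene of the 7 with an unadjusted p under 0.05 for the interaction, against 2.48% of all tested genes, and 0% of all tested genes passed after adjustment.

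Between banded mice, Ckb was lower with hispidulin than with DMSO by values that overlapped. The log2 difference of Hispidulin+AB from DMSO+AB was -0.39 (from -0.85 to 0.06), with an unadjusted p of 0.0833 and an adjusted p of 0.996. It ran from -0.55 without DMSO+AB replicate 1 to -0.23 without Hispidulin+AB replicate 3. DMSO+AB takes part in this comparison and in that with DMSO+Sham, so a high DMSO+AB value moves both. The animal numbers in the labels fall into series, and within the series that begins with 52 the Ckb difference of Hispidulin+AB from DMSO+AB was -1.03 (1 mouse against 1), while within the series that begins with 67 it was -0.07 (2 mice against 2). The difference of DMSO+AB from DMSO+Sham was 0.64 in the first series (1 mouse against 1) and 0.80 in the second, which there compared 2 mice with DMSO+Sham replicate 3 alone.

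Between sham mice, all 3 Hispidulin+Sham values of Ckb lay above all 3 DMSO+Sham values, as 2.77% of tested genes did. By limma the log2 difference was 0.28 (from -0.18 to 0.73, adjusted p = 0.9999). The gap between the groups was narrow, since the lowest Hispidulin+Sham value was 33.80 FPKM and the highest DMSO+Sham value 33.78 FPKM. Without DMSO+Sham replicate 3 the difference was 0.06.

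**Figure D3:**
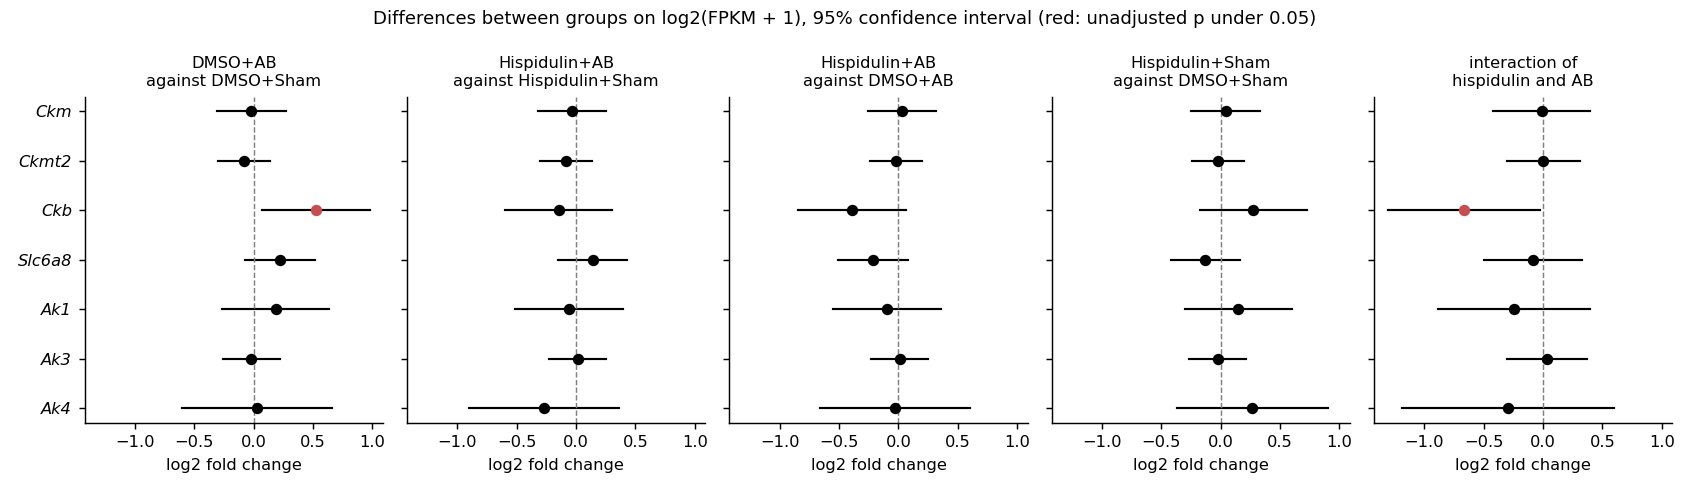
Log2 fold change on log2(FPKM + 1) of each gene in 5 comparisons, with the 95% confidence interval as a line and a red point where the unadjusted p is under 0.05. The only red points are Ckb at 0.52 in DMSO+AB against DMSO+Sham and at -0.67 for the interaction, and neither passed after adjustment.

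As a share of cytosolic creatine kinase mRNA (Ckm and Ckb summed), Ckb was 1.55%, 1.58% and 1.19% in DMSO+Sham. The share was 1.71%, 2.38% and 2.24% in DMSO+AB, so on this scale the DMSO groups did not overlap. It was 1 of 5 shares computed, and the levels of 17.9% of all tested genes did not overlap between these groups. It was 1.48%, 1.72% and 1.89% in Hispidulin+Sham and 1.59%, 1.88% and 1.26% in Hispidulin+AB, which overlapped each other. Muscle-type mRNA was the remainder of the cytosolic pair in every mouse. The share was not tested. Ckmt2 made up between 40.9% and 51.2% of the 3 creatine kinases, with group means of 47.7% in DMSO+Sham, 46.4% in DMSO+AB, 46.5% in Hispidulin+Sham and 45.7% in Hispidulin+AB.

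**Figure D4:**
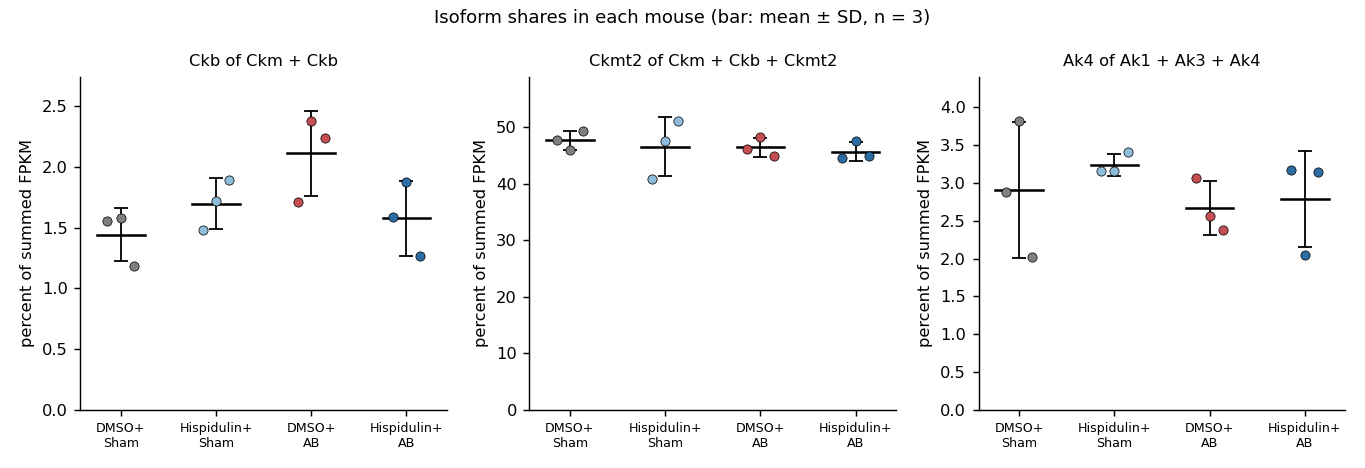
Percent of summed FPKM (axis from 0) in each mouse for Ckb among cytosolic creatine kinases, Ckmt2 among the 3 creatine kinases and Ak4 among the 3 adenylate kinases, with the mean ± SD of 3 mice. The 3 DMSO+AB points of the Ckb share (1.71% to 2.38%) lie above the 3 DMSO+Sham points (1.19% to 1.58%).

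Markers of other cell types were also compared between DMSO+AB and DMSO+Sham. Of the 3 tested nerve and glia markers, 1 rose in DMSO+AB against DMSO+Sham, Uchl1, a ubiquitin hydrolase of neurons, by 1.42 on the log2 scale (adjusted p = 0.0121). The 6 listed nerve and glia markers summed to between 10.7 and 17.0 FPKM in DMSO+Sham and between 22.8 and 44.8 FPKM in DMSO+AB. The glial markers Gfap, S100b and Sox10 stayed under 1 FPKM in every mouse. Of the 7 fibroblast markers, 3 rose (Col1a1, Col1a2 and Postn), with sums from 342 to 442 FPKM in DMSO+Sham and from 401 to 978 FPKM in DMSO+AB. Of the 5 smooth muscle markers, 0 passed, and the sums overlapped. Of the 2 tested skeletal muscle markers, 1 fell, Tnni2, a fast-fibre troponin, by 0.89 on the log2 scale (adjusted p = 0.0269). The 9 listed summed to between 3.74 and 6.46 FPKM in DMSO+Sham and between 2.38 and 3.63 FPKM in DMSO+AB. These sums did not overlap, as the levels of 17.9% of all tested genes did not. Within them Tnni2 had means of 2.80 FPKM in DMSO+Sham and 1.03 FPKM in DMSO+AB. Tnnt3, too low to be tested, had means of 0.313 and 0.67 FPKM. Of the 9 ventricular markers, 2 fell, Ryr2 by 0.59 and Pln by 0.62 on the log2 scale, while 3 had log2 differences above 0 that did not pass: Actc1 at 0.78 (adjusted p = 0.235), Mb at 0.18 and Myl3 at 0.15. Their sums overlapped, from 50852 to 71124 FPKM in DMSO+Sham and from 60476 to 64736 FPKM in DMSO+AB. Of these marker calls, Uchl1 and Postn were kept in 9 of the 12 fits without 1 mouse and lost without DMSO+Sham replicate 1, DMSO+AB replicate 2 or DMSO+AB replicate 3, while Tnni2 was kept in 8, Ryr2 in 4, Col1a1 and Col1a2 in 2 and Pln in 1. With the series of the animal numbers in the model all of these marker calls were lost, with adjusted p between 0.0574 for Uchl1 and 0.112 for Col1a1 and Col1a2. The log2 differences in that model were 1.19 for Uchl1, 3.06 for Postn, 1.76 for Col1a1 and 1.63 for Col1a2. They were -0.92 for Tnni2, -0.55 for Ryr2 and -0.72 for Pln. That model also sets aside DMSO+Sham replicate 1, the only mouse of its series. The part of these markers in the level of Ckb was not tested.

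Slc6a8, which takes creatine up from the blood, was 83.6, 73.3 and 71.1 FPKM in DMSO+Sham. It was 79.3, 84.2 and 104.6 FPKM in DMSO+AB. The banded mice reached higher, and the lowest of them lay below the highest sham mouse. The log2 difference was 0.22 (from -0.07 to 0.52, adjusted p = 0.384). With 1 mouse left out it ran from 0.11 without DMSO+AB replicate 3, the highest mouse, to 0.30 without DMSO+AB replicate 1. Its lowest adjusted p under the alternatives was 0.237, with the series of the animal numbers in the model.

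Under hispidulin, Slc6a8 was 77.0, 69.0 and 62.6 FPKM after Sham and 65.9, 86.6 and 78.1 FPKM after AB. These groups overlapped too, with a log2 difference of 0.14 (from -0.15 to 0.43, adjusted p = 0.909), which ran from 0.050 without Hispidulin+AB replicate 2 to 0.24 without Hispidulin+AB replicate 1. Taking both treatments together, 6 banded against 6 sham mice, the difference was 0.18 (from -0.03 to 0.39), with an unadjusted p of 0.0815 and an adjusted p of 0.282. With 1 mouse left out it ran from 0.12 without DMSO+AB replicate 3 to 0.23 without Hispidulin+AB replicate 1. In that comparison 0 of the 7 genes passed, against 7.39% of all tested genes, and 0 of the 7 against 23.3% had an unadjusted p under 0.05. Between banded mice the log2 difference of Slc6a8 with hispidulin was -0.21 (from -0.51 to 0.08, adjusted p = 0.996). It ran from -0.30 without Hispidulin+AB replicate 2 to -0.095 without DMSO+AB replicate 3.

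Ak1, the main adenylate kinase mRNA of these hearts, was 260, 325 and 160 FPKM in DMSO+Sham. It was 254, 254 and 309 FPKM in DMSO+AB. The banded mice all lay inside the spread of the sham mice, which held both the highest and the lowest value of the 12. The log2 difference was 0.18 (from -0.27 to 0.64, adjusted p = 0.658) with all mice, -0.10 without DMSO+Sham replicate 3 and 0.41 without DMSO+Sham replicate 2. Under hispidulin Ak1 was 283, 285 and 229 FPKM after Sham and 248, 275 and 239 FPKM after AB, groups that overlapped. The log2 difference there was -0.06 (from -0.51 to 0.39).

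Ak3, which passes phosphate from GTP to AMP in the matrix, was the flattest of the adenylate kinases. Its means were 61.4 ± 5.88 FPKM in DMSO+Sham, 60.5 ± 5.74 FPKM in DMSO+AB, 60.4 ± 6.13 FPKM in Hispidulin+Sham and 60.8 ± 3.06 FPKM in Hispidulin+AB (SD, n = 3 each). Single mice ran from 54.02 to 66.97 FPKM. All 4 groups overlapped each other. The log2 difference with AB was -0.02 (from -0.26 to 0.22) under DMSO and 0.01 (from -0.23 to 0.25) under hispidulin.

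Ak4 was 9.35, 15.6 and 4.60 FPKM in DMSO+Sham, the widest group of any of the 7 genes relative to its mean. It was 9.81, 8.24 and 9.14 FPKM in DMSO+AB, all inside that spread. The log2 difference was 0.03 (from -0.61 to 0.66, adjusted p = 0.972), but it was -0.38 without DMSO+Sham replicate 3 and 0.40 without DMSO+Sham replicate 2. Its direction under DMSO thus turned on which sham mouse was left out.

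In Hispidulin+Sham Ak4 was 11.0, 11.4 and 10.2 FPKM. In Hispidulin+AB it was 10, 7.10 and 9.73 FPKM. Every banded mouse lay below every sham mouse, as for 11.8% of tested genes in that comparison. By limma the log2 difference was -0.27 (from -0.90 to 0.36, adjusted p = 0.921), and it was between -0.35 and -0.13 when any 1 mouse was left out. Under hispidulin 0 of the 7 genes passed for AB against Sham, as did 0% of all tested genes, while 7.26% of all tested genes and 0 of the 7 had an unadjusted p under 0.05.

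Of adenylate kinase mRNA from Ak1, Ak3 and Ak4, Ak1 was between 70.1% and 81.3%, Ak3 between 15.5% and 27.9%, and Ak4 between 2.02% and 3.83% in each mouse. The lowest Ak1 share, the highest Ak3 share and the lowest Ak4 share were all in DMSO+Sham replicate 3. The mean Ak4 share was 2.91% in DMSO+Sham, 2.67% in DMSO+AB, 3.24% in Hispidulin+Sham and 2.79% in Hispidulin+AB, with overlap between the DMSO groups.

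Between banded hearts with and without hispidulin, limma called 0 of the 7 genes, as it called 0% of all tested genes. At an unadjusted p under 0.05 it called 0 of the 7 and 3.1% of all tested genes. The gaps for Ckm (0.03), Ckmt2 (-0.02), Ak1 (-0.10), Ak3 (0.01) and Ak4 (-0.03) on the log2 scale were each within 0.1 of 0, with intervals that ran from -0.26 to 0.32 for Ckm and from -0.24 to 0.20 for Ckmt2. The interval of the less abundant Ak4 was wider and ran from -0.66 to 0.61, ratios from 0.632 to 1.52. All 7 genes had overlapping groups, while 7.88% of tested genes did not. Between sham hearts with and without hispidulin 0 of the 7 passed, as did 0% of all tested genes, and 0 of the 7 against 2.46% of tested genes had an unadjusted p under 0.05.

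Beside Ckb, the largest value between sham hearts was that of Ak4, with a log2 difference of Hispidulin+Sham from DMSO+Sham of 0.27 (from -0.37 to 0.90), which was -0.14 without DMSO+Sham replicate 3. Ak1 was at 0.15 (from -0.30 to 0.60), and -0.14 without that mouse, and Slc6a8 at -0.13 (from -0.42 to 0.17), and -0.056 without Hispidulin+Sham replicate 3. Ckm was at 0.04 (from -0.25 to 0.33), Ckmt2 at -0.02 (from -0.24 to 0.20) and Ak3 at -0.03 (from -0.27 to 0.21). Each had an adjusted p of 0.9999.

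The interaction was estimated less closely than any single comparison. It was -0.29 for Ak4 (from -1.19 to 0.60), -0.24 for Ak1 (from -0.88 to 0.40) and -0.08 for Slc6a8 (from -0.50 to 0.33). It was -0.01 for Ckm (from -0.42 to 0.40), 0.0017 for Ckmt2 (from -0.31 to 0.31) and 0.04 for Ak3 (from -0.30 to 0.37). For AB over both treatments the remaining log2 differences were 0.19 for Ckb (from -0.13 to 0.51, and 0.078 without DMSO+Sham replicate 3), 0.06 for Ak1 (from -0.26 to 0.38), -0.03 for Ckm (from -0.23 to 0.18), -0.0036 for Ak3 (from -0.17 to 0.17) and -0.12 for Ak4 (from -0.57 to 0.33).

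Genes around the shuttle were counted in 6 lists, for which the share of all tested genes called in DMSO+AB against DMSO+Sham was 5.21%, and 20.4% at an unadjusted p under 0.05. The mRNAs for creatine synthesis were low in the ventricle: Gamt, its methyltransferase, had group means from 3.67 to 5.27 FPKM and Gatm, its amidinotransferase, from 0.973 to 1.10 FPKM. Neither passed in DMSO+AB against DMSO+Sham, with log2 differences of 0.40 for Gamt (adjusted p = 0.414) and -0.02 for Gatm (adjusted p = 0.945). Ckmt1, the mitochondrial creatine kinase of non-muscle tissues, reached at most 0.34 FPKM in any mouse. Ak6, an adenylate kinase of the nucleus with group means from 13.5 to 15.0 FPKM, was tested and did not pass (log2 difference -0.15, adjusted p = 0.637). Ak5, Ak7, Ak8 and Ak9 were at most 0.1 FPKM in any mouse.

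Among the 10 other nucleotide phosphate kinases, 1 rose in DMSO+AB against DMSO+Sham. With so few genes in a list, 1 call in it says little about the list beside 5.21% of all tested genes, here and in the lists that follow. The gene was Nme1, a nucleoside diphosphate kinase, from 12.9 ± 1.88 to 21.3 ± 4.13 FPKM (SD, n = 3 each), a log2 difference of 0.67 ± 0.15 (SE, adjusted p = 0.0268). Its close relative Nme2, a much more abundant mRNA with a mean of 772 FPKM in DMSO+Sham and 809 FPKM in DMSO+AB, did not pass. RSEM, which the submitters' processing notes name, divides reads that fit more than 1 gene by estimation. Sequence shared by this pair was not measured here, so how uncertain the split between them is remains unknown. The smallest value of this list was that of Cmpk2 at -0.58 (adjusted p = 0.563).

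Among 6 tested carriers and channels that exchange ATP, ADP and phosphate across the mitochondrial membranes, 1 rose. It was Slc25a5, the adenine nucleotide carrier of many tissues, from 232 ± 1.10 to 295 ± 17.7 FPKM (log2 difference 0.34 ± 0.08, SE, adjusted p = 0.0335). Slc25a4, the muscle form of that carrier, was 5848 FPKM in DMSO+Sham and 5382 FPKM in DMSO+AB and did not pass. The phosphate carrier Slc25a3 (-0.22, adjusted p = 0.209) and the outer membrane channel Vdac1 (-0.18, adjusted p = 0.216) had an unadjusted p under 0.05 only.

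Of 12 tested genes that handle AMP and adenosine, 1 rose: Nt5c2, a cytosolic nucleotidase, from 11.1 ± 1.61 to 15.7 ± 0.307 FPKM (log2 difference 0.46 ± 0.11, SE, adjusted p = 0.0302). In the same list Nt5e, the ectonucleotidase that makes adenosine outside the cell, had a log2 difference of 0.51 (adjusted p = 0.498) and Nt5c1a one of -0.26 (adjusted p = 0.559). Of the 5 glycolytic genes that feed ATP production, 0 passed, with Gapdh at 0.34 (adjusted p = 0.179) and Pfkm at -0.23 (adjusted p = 0.404). In AB against Sham under hispidulin, and between banded hearts, limma called 0 genes of these lists and 0 of all 11664 genes. Nme1, Slc25a5 and Nt5c2 had log2 differences with AB under hispidulin of 0.27 (adjusted p = 0.757), 0.03 (adjusted p = 0.974) and 0.35 (adjusted p = 0.489).

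These 3 calls were close to the threshold. With the series of the animal numbers in the model all 3 were lost, with adjusted p of 0.110 for Nme1, 0.113 for Nt5c2 and 0.111 for Slc25a5. DMSO+Sham replicate 1 is the only mouse of its series, so that model also sets this mouse aside. The loss therefore cannot be assigned to the series. Nme1 did not pass without DMSO+Sham replicate 1 (adjusted p = 0.109), DMSO+AB replicate 2 (0.101) or DMSO+AB replicate 3 (0.0689). Nt5c2 did not pass without any of those mice (adjusted p = 0.119, 0.103 and 0.0713), nor without DMSO+Sham replicate 3 (0.0567) or Hispidulin+AB replicate 1 (0.0532). Slc25a5 passed in only 3 of the 12 fits that left out 1 mouse, without DMSO+Sham replicate 2, Hispidulin+Sham replicate 3 or DMSO+AB replicate 1, and its highest adjusted p among the others was 0.118. The log2 differences stayed between 0.53 and 0.90 for Nme1, between 0.37 and 0.60 for Nt5c2 and between 0.29 and 0.38 for Slc25a5 under all 22 alternatives.

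**Figure D5:**
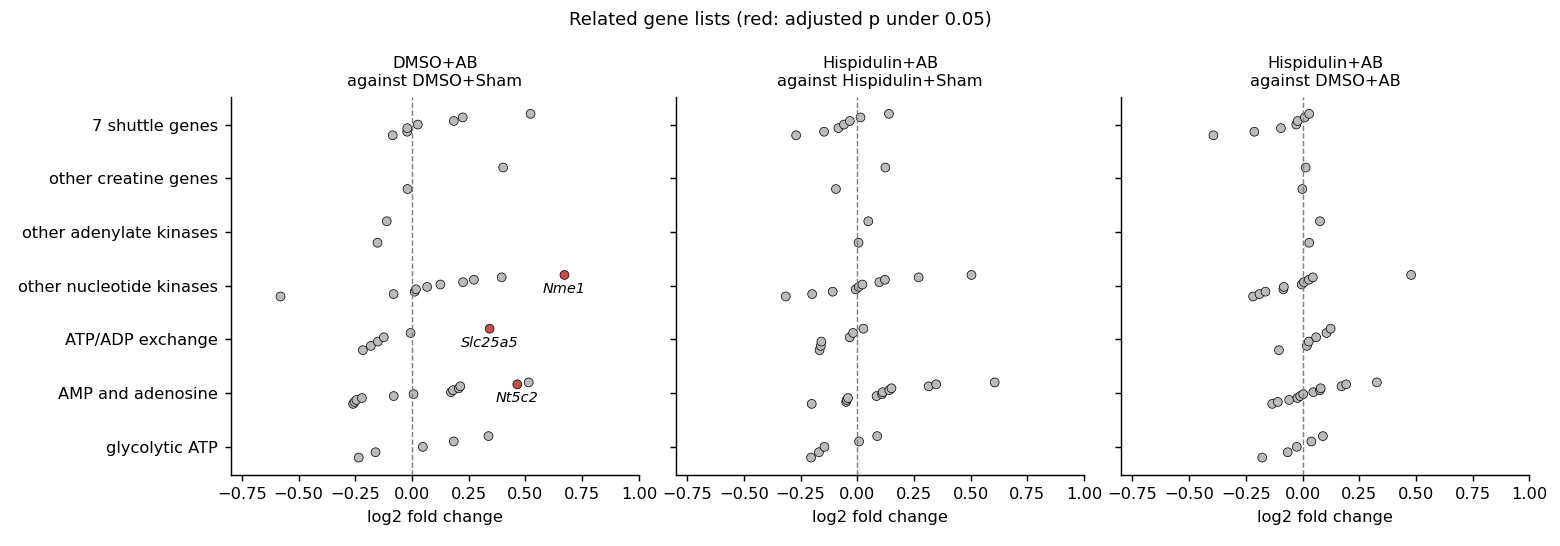
Log2 fold change of every tested gene of the 7 shuttle genes and 6 related lists in 3 comparisons, with a point for each gene and red for an adjusted p under 0.05. The 3 red points, Nme1, Slc25a5 and Nt5c2, are all in DMSO+AB against DMSO+Sham, and none is among the 7 shuttle genes.

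Some of the reads behind these values could have come from related sequences. In GENCODE vM21, 21.9% of the stretches of 50 bases in the Ckb transcript were also found in other genes, nearly all in the pseudogene Gm12892. For Ak4 the share was 11.3%, in Ak3l2-ps. For Ckm it was 11.7%, in the antisense gene A930016O22Rik, for Ak3 11.1% and for Ckmt2 2.51%, while Slc6a8 and Ak1 shared 0 such stretches. Whether strand was used in counting is not stated in the sources used here, which bears on the antisense gene at Ckm. Through their shared stretches Ckm, Ckb, Ak3 and Ak4 carry an added uncertainty of level.

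Patterns across the 12 mice were compared by Pearson correlation of log2(FPKM + 1) with every tested gene, as a description in which all points share libraries and groups. The genes most like Ckb were Suv39h1 (r = 0.95), Tsen34 (r = 0.94) and Hspb2 (r = 0.93). The genes most like Ckm were Zmiz2 (r = 0.89), Ext2 (r = 0.87) and Apba3 (r = 0.86). Ckmt2 was most like Mrpl37 (r = 0.87), Bend5 (r = 0.86) and Zfp707 (r = 0.85). For Slc6a8, Actr1b (r = 0.90) and Ldlrad4 (r = 0.89) were among the most alike. For Ak1 they were Jph2 (r = 0.98), Dcakd (r = 0.97) and Alkbh7 (r = 0.96), for Ak3 Rnf185 (r = 0.92), Zbed3 (r = 0.90) and Trappc12 (r = 0.85), and for Ak4 Fgf16 (r = 0.95), Smtn (r = 0.94) and Epb41l4a (r = 0.94). The values of Ckb, Ak1 and Ak4 have their lowest point in the same mouse, DMSO+Sham replicate 3, which weighs on their correlations.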

How the data were processed

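Poly(A) RNA of the left ventricle of 12 mice was sequenced with single-end reads of 50 bases on a BGISEQ-500. The authors deposited FPKM per gene, rounded to 0.01, in 1 table; the submitters' processing notes name HISAT2 2.0.4, Bowtie2 2.2.5, RSEM 1.2.12 and DESeq2 1.4.5. The genome build and annotation are not given in the sources used here. Steps between low values did not recover whole reads (of 19222 ratios, 19.8% came within 0.1 of an integer, and an even spread would give 20%). The depth is therefore unknown and tests for counts were not run.

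The RefSeq gene table gave symbols for 17947 of 18079 genes. Values were analysed as log2(FPKM + 1) with limma 3.58.1 in R 4.3.3. All 12 mice entered 1 model with a mean for each group, with eBayes and a mean-variance trend, two-sided, and Benjamini-Hochberg adjustment over the 11664 genes that reached an FPKM of 1 in 3 or more mice. The comparisons were AB against Sham under DMSO, under hispidulin and over both with equal weight, hispidulin against DMSO after AB and after Sham, and the interaction. The procedure was tested on simulated data. Groups came from the sample labels. Descriptions were computed in Python 3.11.15, with permutation p-values from 100000 resamples.

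The 7 genes were named in every comparison. Of each list of related genes, the rule named the called genes and those of largest and smallest change in AB against Sham under DMSO and under hispidulin and in hispidulin against DMSO after AB; not all of the latter are printed, and some items are not reported here. The members and lists were chosen with earlier results of these data known. RefSeq promoter windows matched 6 of the 7 genes, Slc6a8 being the exception. Protein sequences were not used here. Alternatives were 0.1 in place of 1 added to FPKM, other filters, median-of-ratios scaling, quantile normalization, only the mice compared, the replicate number or animal number series as a covariate, library weights, stricter criteria (FDR of at most 0.001 and at least 1 on the log2 scale) and each mouse left out.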

Additional observations from a re-analysis of the deposited data

How the results depend on the processing

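Of the 7 genes, 0 were called by limma in any of the 6 comparisons under each alternative run for it, and the lowest adjusted p was 0.0884, for Ckb in DMSO+AB against DMSO+Sham without DMSO+AB replicate 1. Of 910 log2 fold changes recomputed for 42 results, 87 changed sign, none of them larger than 0.383 in size; the cause was not tested. In DMSO+AB against DMSO+Sham, Ckm became 0.0035 and Ak3 0.0027 with median-of-ratios scaling, Ckm became 0.075 when the series of the animal numbers was a covariate, and Ak3 became 0.056 and Ak4 -0.077 with library weights. In Hispidulin+AB against Hispidulin+Sham, Ak3 became -0.0072 with quantile normalization and -0.020 with library weights, and with the animal number series Ckm became 0.032 and Ak1 0.051. In Hispidulin+AB against DMSO+AB, library weights gave Ckmt2 0.0069 and Ak4 0.036. In Hispidulin+Sham against DMSO+Sham, Ckmt2 became 0.041 with the animal number series, and library weights gave Ckm -0.038 and Ak3 0.098. For AB over both treatments, Ak3 became 0.016 with median-of-ratios scaling and 0.018 with library weights, Ak1 -0.033 with library weights and Ckm 0.053 with the animal number series. For the interaction, Ckmt2 became -0.0070 with median-of-ratios scaling and -0.063 with the animal number series, Ckm 0.075 with quantile normalization and 0.15 with library weights, and Ak3 -0.076 with library weights.

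Without the 3 mice with Myl7 above 40 FPKM, an alternative chosen after seeing the data, Ckm was 0.080 in DMSO+AB against DMSO+Sham, Ckb 0.013 and Ckmt2 0.0049 in Hispidulin+AB against Hispidulin+Sham, Ckm -0.057 and Ak3 -0.013 in Hispidulin+AB against DMSO+AB, and Ak3 0.010 for AB over both treatments. With each mouse left out in turn, values that changed sign ranged in DMSO+AB against DMSO+Sham from -0.13 to 0.080 for Ckm, from -0.10 to 0.41 for Ak1, from -0.10 to 0.032 for Ak3 and from -0.38 to 0.40 for Ak4. In Hispidulin+AB against Hispidulin+Sham they ranged from -0.12 to 0.086 for Ckm, from -0.29 to 0.015 for Ckb and from -0.062 to 0.083 for Ak3. In Hispidulin+AB against DMSO+AB they ranged from -0.071 to 0.14 for Ckm, from -0.090 to 0.046 for Ckmt2, from -0.043 to 0.084 for Ak3 and from -0.11 to 0.11 for Ak4. In Hispidulin+Sham against DMSO+Sham they ranged from -0.077 to 0.13 for Ckm, from -0.073 to 0.041 for Ckmt2, from -0.14 to 0.37 for Ak1, from -0.10 to 0.050 for Ak3 and from -0.14 to 0.64 for Ak4. For AB over both treatments they ranged from -0.083 to 0.032 for Ckm, from -0.081 to 0.17 for Ak1, from -0.043 to 0.031 for Ak3 and from -0.33 to 0.065 for Ak4. For the interaction they ranged from -0.11 to 0.11 for Ckm, from -0.066 to 0.069 for Ckmt2, from -0.17 to 0.033 for Slc6a8, from -0.47 to 0.045 for Ak1, from -0.041 to 0.11 for Ak3 and from -0.67 to 0.11 for Ak4. Without a change of sign, Ak1 ran from -0.16 without Hispidulin+Sham replicate 3 to -0.0049 without Hispidulin+Sham replicate 2 in Hispidulin+AB against Hispidulin+Sham, and from -0.15 without Hispidulin+AB replicate 2 to -0.0014 without DMSO+AB replicate 3 in Hispidulin+AB against DMSO+AB, and Ckmt2 for AB over both treatments was -0.052 without DMSO+Sham replicate 1.

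The replicate numbers belong to different animals. With the replicate block 0 of the 7 genes were called in each comparison, Ckb in DMSO+AB against DMSO+Sham had an adjusted p of 0.203, and 640 of all genes were called there against 608 without the block; no call among the 7 changed. Residuals of mice with the same number correlated by -0.422 to 0.33 over 18 pairs (mean 0.0578), against a mean of -0.0289 over 36 other pairs. With only the mice compared, Nme1, Nt5c2 and Slc25a5 had adjusted p of 0.183, 0.234 and 0.233 in DMSO+AB against DMSO+Sham. All genes called in that comparison numbered 11 with only the mice compared, 142 with the animal number series, 358 without a filter and 1423 with library weights. Fits with only the mice compared were not run for the interaction or for both treatments, which use all 12 mice, and shares in TPM were not run because they equal those in FPKM. The unknown depth, 3 mice a group and FPKM without counts limit what can be seen: for Ckb in DMSO+AB against DMSO+Sham the interval spanned ratios from 1.05 to 1.97.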

Other observations

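Over the 12 mice, log2(FPKM + 1) of 21 pairs of the 7 genes was correlated, with permutation p-values adjusted over the pairs, and 0 pairs had an adjusted p under 0.05. The highest were Ak1 with Ak4 (Pearson r = 0.78, permutation p = 0.00934, adjusted p = 0.121; Spearman rho = 0.38, permutation p = 0.228, adjusted p = 0.653) and Ckb with Ak1 (r = 0.74, permutation p = 0.0115, adjusted p = 0.121; rho = 0.50, permutation p = 0.0996, adjusted p = 0.523). Without the 2 mice farthest from the median of the first gene these were -0.05 and 0.22, so both rest on those mice. Ckm with Ak1 was 0.63 (permutation p = 0.0251, adjusted p = 0.176; rho = 0.66, permutation p = 0.0231, adjusted p = 0.484) and 0.78 without the 2 farthest mice.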
